A study of Mus musculus with 4 samples.

Results

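The small leucine-rich proteoglycans decorin (Dcn), biglycan (Bgn), asporin (Aspn), lumican (Lum), fibromodulin (Fmod), prolargin (Prelp), osteomodulin (Omd), osteoglycin (Ogn) and podocan (Podn), together with the large proteoglycan versican (Vcan), were followed in quiescent mouse embryonic fibroblasts (MEFs) labelled WT or Phf2 KO, Phf2 being a member of a histone demethylase family. The genes were taken by symbol, and all 10 were found among the 24391 genes of the count table. RNA-seq had been performed on 2 libraries labelled wild-type (WT) and 2 labelled Phf2 KO, all from primary MEFs of E13.5 embryos. All 4 libraries carried the genotype Phf2 flox/flox with ERCre, the inducible CreERT2 recombinase driven from the Rosa26 locus, and the descriptions named tamoxifen for the Phf2 KO libraries and its absence for the WT libraries. The treatment text, which was worded alike for all libraries, gave arrest for 7 days in a low-serum medium (2% charcoal-treated FBS) to which the tamoxifen metabolite 4-OHT had been added at 0.5 µM. By these descriptions no library had tamoxifen without recombination, so loss of Phf2 and exposure to tamoxifen cannot be told apart. The study describes the 2 replicates of each group as biological, without saying from which embryos or cultures they came.

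Small leucine-rich proteoglycans are secreted proteins with a curved core of leucine-rich repeats, most of which bind collagen fibrils and set their diameter and spacing. The family is sorted into classes by sequence. Dcn, Bgn and Aspn belong to class I, Lum, Fmod, Prelp and Omd to class II, Ogn to class III and Podn to class V. Vcan is a hyalectan, a much larger proteoglycan that carries chondroitin sulfate chains and binds hyaluronan. Fibroblasts secrete most of these proteins as part of the matrix that holds connective tissue together. Phf2 carries a PHD finger that reads methylated lysine on the tail of histone H3.

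Several of these genes lie next to one another in the genome (mm9, GENCODE M1 annotation). Dcn (chr10:96942245-96980777, plus strand) was followed by Lum (chr10:97028135-97035337, plus strand) after 47.4 kb. Prelp (chr1:135806881-135817991, minus strand) and Fmod (chr1:135933831-135944854, plus strand) were 115.8 kb apart and pointed away from each other. Aspn (chr13:49639812-49662926), Omd (chr13:49678135-49687978) and Ogn (chr13:49703440-49719869) formed a cluster on the plus strand with gaps of 15.2 and 15.5 kb. Phf2 itself (chr13:48897119-48966254, minus strand) lay on the same chromosome, 673.6 kb from Aspn. Bgn (chrX:70728941-70741272, plus strand), Podn (chr4:107687396-107704942, minus strand) and Vcan (chr13:89794915-89882117, minus strand) had no other member beside them. Hapln1 (chr13:89680241-89751437, plus strand), the gene of a link protein, lay near Vcan and had 1 to 4 counts per library. Vcan had 10 annotated transcripts, 9 of them coding, and the counts per gene did not separate them.

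The promoters shown here are those of Aspn, Prelp and Vcan, which were lower in Phf2 KO libraries in the fit described below that held the replicate number, and of Ogn and Fmod, the neighbours of Aspn and Prelp, which were not. Each line gives the 250 bases before the annotated start, 5′ to 3′ on the strand of the gene, from RefSeq on GRCm38.p6, a later build than that of the counts. The windows are chr13:49544193-49544442 (plus strand) for Aspn, chr1:133921402-133921651 (minus strand) for Prelp, chr13:89742513-89742762 (minus strand) for Vcan, chr13:49607765-49608014 (plus strand) for Ogn and chr1:134037004-134037253 (plus strand) for Fmod. Capitals mark CCAAT or TATAAA on either strand, so that ATTGG and TTTATA are their reverse complements.
Aspn: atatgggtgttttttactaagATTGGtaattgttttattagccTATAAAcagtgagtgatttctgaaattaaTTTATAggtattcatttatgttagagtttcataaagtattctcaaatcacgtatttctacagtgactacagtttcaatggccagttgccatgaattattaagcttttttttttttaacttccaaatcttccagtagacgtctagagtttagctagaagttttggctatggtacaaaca
Prelp: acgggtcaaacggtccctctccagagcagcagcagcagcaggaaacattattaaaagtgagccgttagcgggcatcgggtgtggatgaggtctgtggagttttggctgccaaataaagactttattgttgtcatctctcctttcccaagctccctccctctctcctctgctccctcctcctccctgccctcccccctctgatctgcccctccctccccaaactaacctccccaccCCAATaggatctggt
Vcan: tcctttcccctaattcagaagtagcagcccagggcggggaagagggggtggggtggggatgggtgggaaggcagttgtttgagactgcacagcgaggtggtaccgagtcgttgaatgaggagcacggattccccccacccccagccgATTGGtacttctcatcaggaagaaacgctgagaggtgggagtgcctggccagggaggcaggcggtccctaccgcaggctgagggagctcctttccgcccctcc
Ogn: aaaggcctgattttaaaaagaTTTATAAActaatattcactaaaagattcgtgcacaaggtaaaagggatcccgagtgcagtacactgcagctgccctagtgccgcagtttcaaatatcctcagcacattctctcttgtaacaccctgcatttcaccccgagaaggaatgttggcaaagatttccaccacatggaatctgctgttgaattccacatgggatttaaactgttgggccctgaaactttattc
Fmod: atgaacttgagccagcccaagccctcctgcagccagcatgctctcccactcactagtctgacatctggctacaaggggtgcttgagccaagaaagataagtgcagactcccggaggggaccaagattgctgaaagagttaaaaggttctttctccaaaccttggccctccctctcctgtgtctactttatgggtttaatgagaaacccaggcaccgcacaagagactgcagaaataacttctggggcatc

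RefSeq entries were matched for 8 of the 10 genes, the exceptions being Dcn and Lum. CCAAT, the letters of the CCAAT box, occurred in the promoters of Aspn, Prelp and Vcan, which were the 3 genes with an entry that were lower in the fit with the replicate number. It occurred in 0 of the 5 other genes with an entry, and in 33.8% of the 32851 promoters of the table. The letters stood 15 to 11 bases before the start of Prelp, 103 to 99 bases before that of Vcan on the reverse strand, and 229 to 225 bases before that of Aspn on the reverse strand. TATAAA occurred in Aspn, once on each strand, and in Ogn, where the copies on the 2 strands overlap, compared with 12.4% of all promoters. TGANTCA, the AP-1 site, was not found in the promoters of the members with an entry, and 6.75% of all promoters held it. The promoters of Aspn and Fmod held 2 CpG each, that of Ogn 4, that of Prelp 5 and that of Vcan 10, against a median of 6 over the table. These are matches of letters only. The genes were grouped by their results in these same data, and the difference in CCAAT was not tested. Lum, called in the same fit, had no entry, and without WT replicate 1 the log2 fold change of Aspn was -0.047.

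The libraries held 21094743 to 26094268 counts, of which the 10 genes took 0.872 to 1.10%. Values are given below as CPM (counts scaled to the library total) with library totals scaled by the trimmed mean of M-values (TMM), and n = 2 libraries in each group throughout. Phf2 had 3244 and 3680 counts in the WT libraries against 1454 and 2158 counts in the Phf2 KO libraries. Reads over the whole gene were thus lower but still present in the Phf2 KO libraries (138 ± 5.11 and 80.0 ± 13.9 CPM, mean ± SD). These counts do not measure protein. For Phf2 KO MEFs the paper reports depletion of the protein by immunoblot and the loss of nearly every Phf2 binding peak on chromatin. The 13 fibroblast markers summed to 69484 to 81897 CPM, whereas markers of epithelium summed to at most 0.998 CPM and the 6 osteoblast markers to 23.2 to 31.9 CPM, nearly all of it Runx2 (553 to 741 counts), with Sp7 at 0 or 1 count. Libraries of the same number shared the sex of the cells in both groups, with Xist at 10042 and 8336 counts in replicate 1 and at 3 and 12 counts in replicate 2. They also shared the level of 15 macrophage markers, which summed to 3739 CPM in WT and 4241 CPM in Phf2 KO in replicate 1, and to 811 and 1280 CPM in replicate 2. For the 10 proteoglycans, values within each replicate number and from a fit that held the number as a term are therefore given beside the test of genotype alone.

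The matrix transcripts covered a wide range of levels in these fibroblasts. Per kilobase of exon, Bgn, which binds collagen and also signals through Toll-like receptors, was the most abundant in all 4 libraries, at 1495 and 1892 CPM per kb in WT and 1490 and 1778 CPM per kb in Phf2 KO. It made up 47.4 to 53.9% of the summed level per kb of the 10 genes. Dcn, its closest relative, came second with 676 to 922 CPM per kb, and the ranges of both genes did not meet. Fmod followed with 231 to 286 CPM per kb. Podn (169 to 182 CPM per kb) and Prelp (124 to 176 CPM per kb) came next, with Podn above Prelp in 3 of 4 libraries. In WT, Prelp and Podn were within the spread of each other.

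Lum and Aspn were nearly equal in each WT library and exchanged places in Phf2 KO. Lum stood at 65.1 and 44.8 CPM per kb in WT and Aspn at 64.7 and 44.7 CPM per kb. In Phf2 KO, Lum stood at 29.3 and 35.9 CPM per kb and Aspn at 43.5 and 42.4 CPM per kb. Ogn (23.2 to 26.4 CPM per kb), Vcan (3.80 to 6.42 CPM per kb) and Omd (0.428 to 0.644 CPM per kb) held the lowest places in every library. Omd rested on 15 to 26 counts per library.

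**Figure D1:**
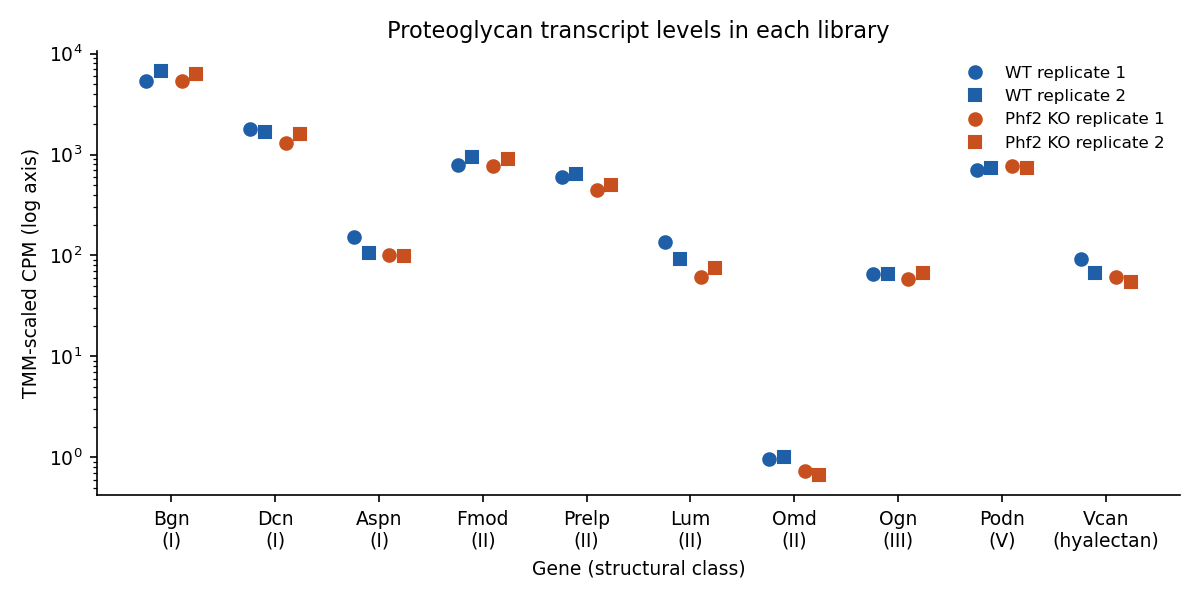
Level of each proteoglycan transcript, in TMM-scaled CPM on a log axis and not divided by length, in the 2 WT and 2 Phf2 KO libraries, each point being 1 library, with the genes ordered by structural class. Bgn lies highest (5308 to 6741 CPM) and Omd lowest (0.666 to 1.00 CPM), and for Dcn, Lum, Omd, Prelp, Aspn and Vcan both Phf2 KO points lie below both WT points.

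The comparison of Phf2 KO with WT asked whether transcripts depend on Phf2. For these proteoglycans, Lum, Prelp, Aspn, Vcan, Dcn and Omd were lower in both Phf2 KO libraries than in both WT libraries, while Bgn, Fmod, Ogn and Podn overlapped between the groups. These 6 of 10 genes compare with 18% of the 13668 genes tested whose groups did not overlap with Phf2 KO lower. In the test of genotype alone (edgeR's quasi-likelihood test, Benjamini-Hochberg adjusted p under 0.1), 0 of the 10 genes passed in either direction, against 0.00732% of all genes tested, and each had an adjusted p of 0.999. At an unadjusted p under 0.05, Lum and Prelp were lower and no member was higher, against 2.67% of all genes lower and 1.54% higher. DESeq2's Wald test on the same design called 0 of the 10, against 0.4% of all genes in either direction, 0.338% lower and 0.0625% higher. Phf2 itself was not called by edgeR's test of genotype alone (log2 fold change -0.79, SE 0.14, adjusted p = 0.999). It was called lower by DESeq2's test (adjusted p = 0.00320) and by edgeR with the replicate number (adjusted p = 7.67e-19). A gene not called by edgeR's test of genotype alone is thus not shown to be unchanged. The median log2 fold change of the 10 genes was -0.30, with 9 below 0 and 1 above, and that of all genes tested was 0.0054.

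The test that held the replicate number as a term called 4 of the 10 genes, Lum, Prelp, Aspn and Vcan, all lower in Phf2 KO (adjusted p under 0.1). Of all genes tested, 5.2% were called lower and 5.77% higher in this fit. It has 1 residual degree of freedom, and edgeR gave each gene the spread of all genes of like abundance, so that a disagreement between the replicate numbers at 1 gene did not enter its p. In a bulk sample, fewer cells of a type and less RNA per cell cannot be told apart.

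Among class II members, Lum, which spaces the fibrils of cornea and skin, had the lowest log2 fold change of the 10 genes in the fit of genotype alone, though not within replicate 2, where Omd (-0.59) and Prelp (-0.35) were below it. In WT it measured 135 CPM in replicate 1 and 93.0 CPM in replicate 2, and in Phf2 KO 60.9 CPM in replicate 1 and 74.5 CPM in replicate 2. Both Phf2 KO libraries were below both WT libraries, although the WT libraries were farther apart than WT replicate 2 was from Phf2 KO replicate 2. The log2 fold change was -0.75 (SE 0.22, unadjusted p = 0.0202, edgeR), with means of 114 ± 29.7 CPM in WT and 67.7 ± 9.65 CPM in Phf2 KO. The log2 ratio was -1.15 within replicate 1 and -0.32 within replicate 2, or 45.1% and 80.1% of WT. With the replicate number in the fit the adjusted p was 1.49e-15 in edgeR and 9.44e-15 in limma-voom and 0.600 in DESeq2. Without WT replicate 1 the log2 fold change of Lum was -0.45 and that of Omd -0.52.

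Prelp, which anchors basement membranes to the tissue beneath, was lower by nearly the same ratio in both replicate numbers. Its level was 598 and 637 CPM in WT and 447 and 499 CPM in Phf2 KO, so that the groups were separated by more than the spread within either (617 ± 27.1 and 473 ± 36.7 CPM). The log2 fold change was -0.38 (SE 0.11, unadjusted p = 0.0173, edgeR), and the ratio was -0.42 within replicate 1 and -0.35 within replicate 2. Prelp was at 74.8% and 78.4% of WT in these. With the replicate number in the fit the adjusted p was 0.00115 in edgeR, 0.00109 in DESeq2 and 0.000793 in limma-voom.

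Fmod, which binds collagen at the same place as Lum, was not called in either fit. It measured 789 and 944 CPM in WT and 763 and 907 CPM in Phf2 KO, and the groups overlapped. The log2 fold change was -0.053 (SE 0.15, adjusted p = 0.999, edgeR), and the log2 ratio was -0.048 within replicate 1 and -0.058 within replicate 2 (adjusted p = 0.842 with the replicate number in the edgeR fit). Omd, a class II member found mostly in bone, measured 0.954 and 1.00 CPM in WT and 0.724 and 0.666 CPM in Phf2 KO. It had 23 and 26 counts in the WT libraries and 15 and 16 counts in the Phf2 KO libraries, and with a log2 fold change of -0.49 (SE 0.32, adjusted p = 0.999, edgeR) no difference was detectable at this depth. The log2 ratio of Omd was -0.40 within replicate 1 and -0.59 within replicate 2, with an adjusted p of 0.511 in the edgeR fit with the replicate number.

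Among class I members, Aspn, a proteoglycan that binds collagen and TGF-β and lacks the attachment site for a sugar chain, was at 152 CPM in WT replicate 1 and at 105, 102 and 99.4 CPM in WT replicate 2 and Phf2 KO replicates 1 and 2. One library, WT replicate 1, thus stood above the other 3. The log2 fold change was -0.35 (SE 0.19, adjusted p = 0.999, edgeR), and it was -0.047 without WT replicate 1. Within replicate 1 the ratio was -0.57 and within replicate 2 it was -0.077. The fit with the replicate number gave an adjusted p of 0.00263 in edgeR and 0.00411 in limma-voom, and of 0.844 in DESeq2.

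Dcn, the best known regulator of collagen fibril diameter and a ligand of TGF-β and of growth factor receptors, measured 1786 and 1668 CPM in WT and 1310 and 1601 CPM in Phf2 KO. The groups did not overlap, but Phf2 KO replicate 2 came close to WT replicate 2. The log2 fold change was -0.25 (SE 0.14, adjusted p = 0.999, edgeR), with -0.45 within replicate 1 and -0.059 within replicate 2. Leaving out a Phf2 KO library moved it to -0.11 (replicate 1 left out) or -0.40 (replicate 2 left out). With the replicate number in the fit the adjusted p was 0.134 in edgeR, 0.258 in DESeq2 and 0.0882 in limma-voom. Bgn measured 5328 and 6741 CPM in WT and 5308 and 6337 CPM in Phf2 KO. Its libraries lay by replicate number and not by group, and the log2 fold change was -0.052 (SE 0.18, adjusted p = 0.999, edgeR). Its log2 ratio was -0.0054 within replicate 1 and -0.089 within replicate 2, with an adjusted p of 0.899 in the edgeR fit with the replicate number.

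Ogn, a member of class III found in bone, vessels and connective tissue, measured 65.0 and 64.8 CPM in WT and 58.9 and 67.1 CPM in Phf2 KO. Podn, of class V, measured 711 and 737 CPM in WT and 767 and 734 CPM in Phf2 KO. Both overlapped between the groups, and their log2 fold changes of -0.042 (SE 0.098) for Ogn and 0.052 (SE 0.092) for Podn were within 1 SE of 0. The log2 ratio of Ogn was -0.14 within replicate 1 and 0.050 within replicate 2, and that of Podn 0.11 and -0.0053. In the edgeR fit with the replicate number the adjusted p was 0.849 for Ogn and 0.842 for Podn.

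Vcan, which makes the matrix around migrating and dividing cells loose and hydrated, measured 92.9 and 67.2 CPM in WT and 60.7 and 55.0 CPM in Phf2 KO. Both Phf2 KO libraries were below both WT libraries, and replicate 2 was below replicate 1 in both groups. The log2 fold change was -0.47 (SE 0.18, unadjusted p = 0.0504, edgeR), and it was -0.21 without WT replicate 1. The ratio was -0.61 within replicate 1 and -0.29 within replicate 2, or 65.3% and 81.8% of WT. With the replicate number in the fit the adjusted p was 7.64e-06 in edgeR, 0.0290 in DESeq2 and 1.92e-05 in limma-voom.

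**Figure D2:**
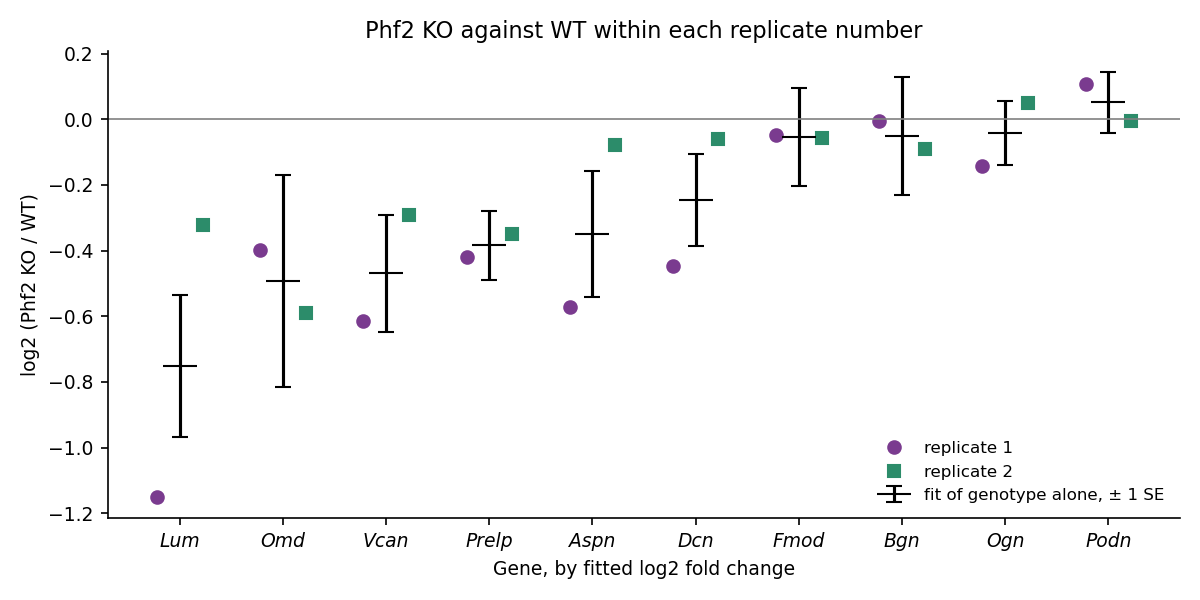
Log2 ratio of Phf2 KO to WT for each proteoglycan, within replicate 1 and within replicate 2, beside the fitted log2 fold change of genotype alone with its SE. Prelp has nearly the same ratio in both replicates (-0.42 and -0.35), whereas Lum (-1.15 and -0.32), Aspn (-0.57 and -0.077) and Dcn (-0.45 and -0.059) were lower mainly in replicate 1.

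Within the replicate numbers, 8 of the 10 genes were lower in Phf2 KO in both, compared with 30.2% of all genes tested, and 0 were higher in both, compared with 32.6%. Of these 8 genes, 5 had the larger difference in replicate 1. The median ratio of the 10 genes was -0.41 in replicate 1 and -0.083 in replicate 2. The members' summed level in Phf2 KO was 91.9% of WT in replicate 1 and 93.8% in replicate 2, and Bgn was 55.2 to 61.1% of the members' counts. Class II summed to 1523 and 1675 CPM in WT and 1272 and 1481 CPM in Phf2 KO, without overlap. WT replicate 1 was nonetheless nearer to Phf2 KO replicate 2 than to WT replicate 2, and Fmod, the most abundant gene of the class, overlapped between the groups. Class I summed to 7266 and 8514 CPM in WT and 6719 and 8037 CPM in Phf2 KO, with overlap.

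The ratio between related genes differed between the groups for some pairs. Per kb of exon, the ratio of Prelp to Fmod was 0.693 and 0.617 in the WT libraries, against 0.536 and 0.503 in the Phf2 KO libraries. The ratio of Lum to Dcn was 0.0706 and 0.0521 in WT and 0.0434 in both Phf2 KO libraries. In both pairs the groups did not overlap. The ratio of Bgn to Dcn was 1.62 in WT replicate 1 and 2.15 to 2.20 in the other 3 libraries. The ratio of Aspn to Ogn was 2.53 and 1.75 in the WT libraries and 1.87 and 1.60 in the Phf2 KO libraries, with overlap. With 2 libraries in each group these ratios were not tested.

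The replicate numbers themselves separated some of the genes. In the fit with genotype, 4 of the 10 genes differed between replicate 2 and replicate 1 (edgeR, adjusted p under 0.1), against 26.2% of all genes tested. Bgn was higher in replicate 2 by a log2 value of 0.30 (SE 0.13, adjusted p = 0.0819) and Fmod by 0.25 (SE 0.097, adjusted p = 0.0440). Aspn (log2 difference of -0.29, SE 0.083, adjusted p = 0.00361) and Vcan (-0.31, SE 0.085, adjusted p = 0.00217) were lower in replicate 2. Across all genes tested, the log2 difference between replicates correlated between WT and Phf2 KO (r = 0.81), but the share with the same direction was not counted. For 5 of the 10 genes the difference between replicates had the same direction in both groups. Lum did not, since replicate 2 was below replicate 1 in WT (log2 ratio -0.54) and above it in Phf2 KO (0.29). All 15 macrophage markers were lower in replicate 2, and 7 of 15 were higher in Phf2 KO in the fit with the replicate number. Their part in these differences was not tested.

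Values of neighbours in the genome were set beside those of the proteoglycans. In the pair of Dcn and Lum, which both were lower in each Phf2 KO library, the next gene of the family, Kera, had 4 to 6 counts per library and Epyc 18 to 24. In the pair of Prelp and Fmod, Prelp alone was lower in the fit with the replicate number, and Optc, 2.3 kb from Prelp, was at a log2 fold change of -0.18 (SE 0.21, adjusted p = 0.999, edgeR). Atp2b4, a calcium pump gene that lies beyond Optc on the same strand and was chosen for naming after its values were seen, had 561 and 652 counts in the WT libraries and 244 and 348 counts in the Phf2 KO libraries. Its log2 fold change was -0.88 (SE 0.15), and it was called lower by DESeq2 (adjusted p = 0.0153) and by edgeR with the replicate number (adjusted p = 3.85e-12). In the cluster on chromosome 13 the values were -0.35 for Aspn, -0.49 for Omd, -0.042 for Ogn and -0.25 for Ecm2, another leucine-rich gene that lies before Aspn. Of the 10 coding genes between Phf2 and Ogn that are not members, Ecm2 among them, 9 could be tested. Their log2 fold changes ran from -0.25 to 1.20 with 2 below 0, Ecm2 at the lower end and Fam120a at -0.024. The upper end was Cenpp, which overlaps the cluster on the opposite strand and had 3 to 16 counts per library. The fit with the replicate number called 1 of the 9, Ninj1, which was higher in Phf2 KO (adjusted p = 0.0462), against 11% of all genes tested, and DESeq2 with the replicate number did not call it (adjusted p = 0.518).

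**Figure D3:**
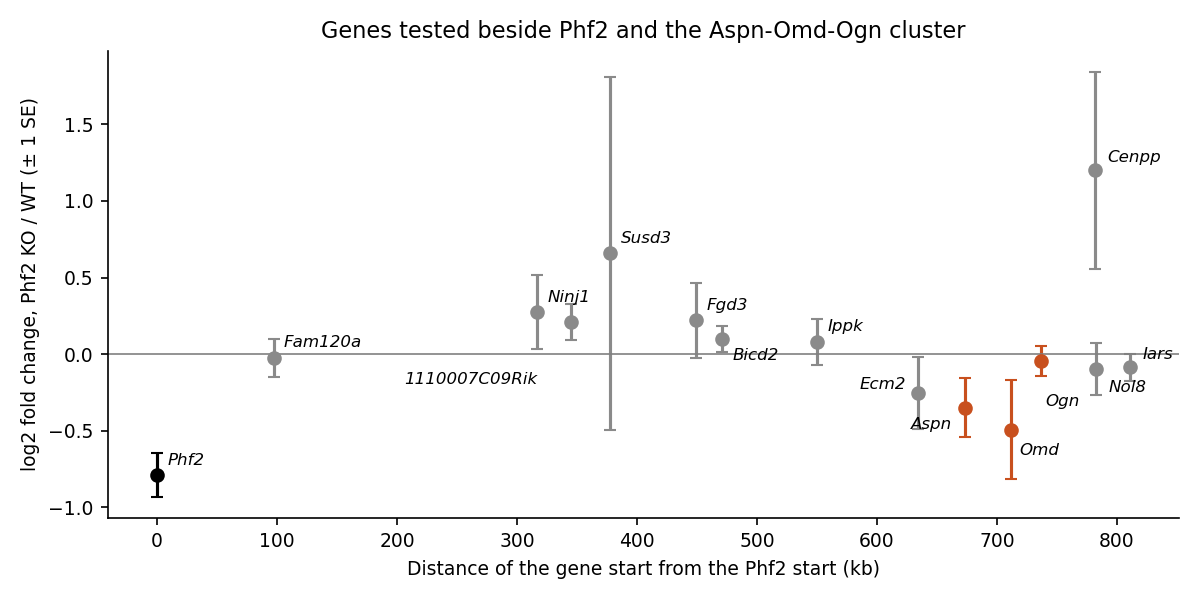
Log2 fold change of Phf2 KO over WT (points, bars are 1 SE, fit of genotype alone) for the tested genes from Phf2 to the Aspn-Omd-Ogn cluster, against the distance of each gene start from the Phf2 start in kb. Phf2 lies lowest at -0.79, the genes between it and the cluster lie mostly at or above 0, and Aspn, Omd and Ogn lie at -0.35, -0.49 and -0.042.

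The partners of these proteoglycans were read from lists of related genes, in which the test of genotype alone called 0 genes and 12 had an unadjusted p under 0.05 (edgeR). The log2 fold changes given for them are those of genotype alone, and the calls are those of the edgeR fit with the replicate number, in which 11% of all genes tested were called. Of 12 collagens that small leucine-rich proteoglycans bind or lie beside, 6 were called lower and 1 higher, and their median log2 fold change was -0.36. DESeq2's test of genotype alone called 5 of the 12 lower, against 0.338% of all genes. The largest values were those of Col6a3 (log2 fold change -0.96), a chain of the beaded filaments of collagen VI, Col5a3 (-0.84), Col14a1 (-0.67) and Col6a2 (-0.52). Col6a3 had 16177 and 16763 counts in the WT libraries and 7485 and 7646 counts in the Phf2 KO libraries. Col1a1, the most abundant of the list, was at -0.24 and not called. The gene that was higher, Col2a1, which was chosen for naming after its value was seen, had 28 and 75 counts in replicate 1 and 542 and 645 counts in replicate 2 (WT, then Phf2 KO).

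Of 26 tested genes for enzymes that build the sugar chains, 2 were higher and 1 was lower in the fit with the replicate number, a share near the 11% of all genes, with a median log2 fold change of -0.013. Chst11, which sulfates chondroitin, was at -0.49, while Chpf2, which extends chondroitin, was at 0.25 and B3gat3, which completes the linker between chain and protein, at 0.23. Chpf, the most abundant of the list, was at 0.012 and not called. Of 11 proteases that cut the core proteins, 2 were higher and 1 was lower. Adamts15, which cleaves Vcan, had 2033 and 1937 counts in the WT libraries and 2823 and 2440 counts in the Phf2 KO libraries, a log2 fold change of 0.58, and was called with an adjusted p of 1.47e-09 in edgeR and 0.000119 in DESeq2 with the replicate number in both fits. Adamts9, another protease of Vcan, was at 0.26 and Tll1, which belongs to the family that trims the propeptides of Bgn and of collagens, at -0.54. Mmp2, the most abundant of this list, was at -0.015.

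Receptors and ligands bound by these proteoglycans went both ways, with 6 of 18 higher and 3 lower in the fit with the replicate number. Bmp4 was at a log2 fold change of 0.55 and Tgfb3 at 0.29, and Egfr, a receptor bound by Dcn, at -0.29. C1qa, at 0.45, is also among the macrophage markers. Lrp1, an endocytic receptor of Dcn and the most abundant of the list, was at -0.11 and not called. Of 18 other proteoglycans, 2 were higher and 5 lower. Spock3 (log2 fold change -2.50) rested on 42 and 16 counts in the WT libraries and 6 and 3 counts in the Phf2 KO libraries, Prg4, the lubricant of joints, was at -1.02 and Spock2 at -0.93. Gpc2, a glypican, was at 0.49, and Hspg2 (perlecan), the most abundant of the list, was at 0.23 and not called.

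Too few of the closest relatives were tested for their calls to be read against that 11%. Of 9 other small leucine-rich proteoglycan genes 7 passed the filter on low counts, and 0 of 7 were called with or without the replicate number, with a median log2 fold change of -0.089 and Tsku, the most abundant, at -0.10. Of 7 hyalectan and link protein genes 3 could be tested, and 0 were called, with Hapln4 at -0.68 on 15 to 38 counts. The hyalectan Acan had 4 to 14 counts. Markers of tenocytes, the tendon cells in which Fmod and Lum are abundant, summed to 32.4 and 40.0 CPM in WT and 22.5 and 29.1 CPM in Phf2 KO. Of these, 2 of 4, Mkx and Tnmd, were called lower in the fit with the replicate number. Scx and Thbs4 were not called. Scx measured 7.97 and 12.4 CPM in WT and 8.88 and 7.74 CPM in Phf2 KO, and Thbs4 had 11 to 25 counts per library. The log2 fold change of Fmod was -0.053. The part of tenocytes in the levels of Lum, Prelp and Fmod was not tested.

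**Figure D4:**
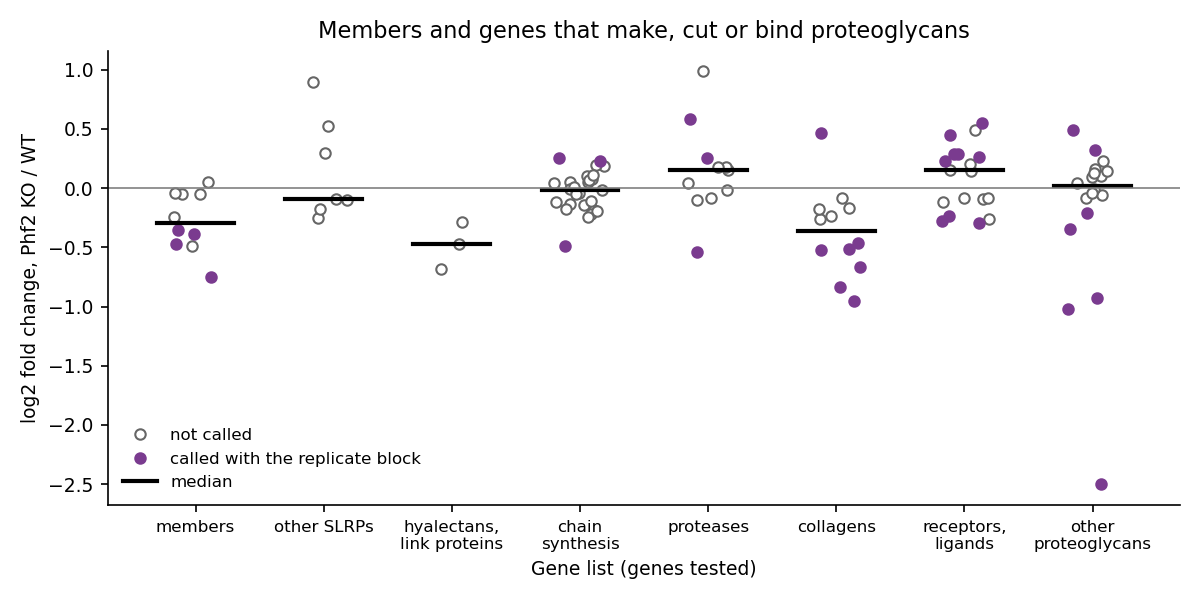
Log2 fold change of Phf2 KO over WT for every tested gene of the 10 proteoglycans and of each partner list, each point being 1 gene and filled points being those called in the fit with the replicate number. Of the collagens (median -0.36) 11 of 12 and of the proteoglycans (median -0.30) 9 of 10 lie below 0. The 3 hyalectan and link protein genes (median -0.47) also lie below 0, but had only 9 to 38 counts per library and were not called. The other lists lie on both sides of 0.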

How the data were processed

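RNA-seq of 2 WT and 2 Phf2 KO MEF libraries was analysed from the deposited table of whole-number counts per gene. Per the paper's methods and the submitters' processing notes, the authors trimmed reads, mapped them to mm9 with STAR (reverse-stranded setting) and counted them with featureCounts, with no normalization of the counts. Versions and the gene annotation are not given in the sources used here. A second deposited table holds the authors' own comparison by DESeq2 and was not used.

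The genes and the lists of partners and markers were chosen with earlier results of these data known. Of 24391 genes, 13668 passed edgeR's filterByExpr. Phf2 KO was compared with WT by the quasi-likelihood test of edgeR 4.0.16 with TMM scaling and genotype as the only term, and p-values were Benjamini-Hochberg adjusted over all genes tested (threshold 0.1). Replicates 1 and 2 were compared with genotype in the fit. Alternatives were DESeq2 1.42.0, limma-voom (limma 3.58.1), a threshold of 0.05, scaling by library size only or by RLE size factors, no filter beyond 1 count in total, each library left out, and the replicate number as a block. The block in DESeq2 and limma-voom was chosen after seeing the data. No label or method says that a number marks a shared embryo, litter or day. The pairing was read from the data: same-numbered libraries shared sex, and the log2 difference between replicates correlated between WT and Phf2 KO across genes (r = 0.81, 13668 genes, which are not independent). No pair of libraries agreed within sampling noise (chi-square per degree of freedom 14.6 to 55.1). Positions and exon lengths came from the mm9 annotation GENCODE M1.

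Named are all 10 genes, Phf2, the most abundant gene of each partner list, up to 4 of its genes called with or without the block with the largest log2 fold changes, and markers near 0 or most abundant. Depth was 21094743 to 26094268 counts, and 3 counts corresponded to 0.115 to 0.142 CPM. Fits were also run on simulated data with the same spread for every gene. That spread was not taken from these libraries, so the runs do not show how reliable the calls given here are.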

Additional observations from a re-analysis of the deposited data

Results flagged for a closer look

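Ogn and Podn had Phf2 KO to WT ratios of opposite sign in the replicate numbers. The log2 ratio of Ogn was -0.14 in replicate 1 and 0.050 in replicate 2. That of Podn was 0.11 in replicate 1 and -0.0053 in replicate 2. Each value compares 1 library with 1 library, and the difference between the replicates was not tested.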

How the results depend on the processing

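The replicate number as a block moved the results most. The fit of genotype alone called 1 gene, which was not Phf2, 0 of the 10 proteoglycans and 0 partner genes. The block in edgeR called 1500 genes, 4 proteoglycans and 29 partner genes, in DESeq2 302, 2 and 13, and in limma-voom 1371, 5 (Dcn added) and 27. The common dispersion was 0.0451 without and 0.00363 with the block. Without the block, DESeq2 called 64 genes, 10 higher and 54 lower, and 5 partner genes. limma-voom called 0 genes (575 at an unadjusted p under 0.05) and edgeR at an adjusted p under 0.05 called 0 (576 at an unadjusted p under 0.05). With any 1 library left out, edgeR called 0 genes (224 to 746 at an unadjusted p under 0.05), and the lone library was assumed to vary like the other group. The members' median log2 fold change then ran from -0.37 to -0.19. Leaving out 1 library gave log2 fold changes of -0.20 to 0.13 for Bgn, -0.18 to 0.082 for Fmod and -0.14 to 0.048 for Ogn. The other 7 genes kept their sign in all 13 alternatives. The threshold of 0.05 is among the 13 and uses the same fit, so it could not change a sign. Podn is among the 7, although its log2 fold change of 0.052 (SE 0.092) was within 1 SE of 0. Between replicates, edgeR called 3580 genes and 4 proteoglycans, DESeq2 1364 and 2, and edgeR with no genotype term 1445 and 0 (1 at an unadjusted p under 0.05). Size factors and library size moved the median of all genes by 0.0069 and -0.011 on the log2 scale. Depth limits Omd alone among the 10, with 15 to 26 counts per library.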
